A study of Mus musculus with 16 samples.

Results

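Acute phase, complement and metallothionein genes were followed in mouse liver as a set of 40 named genes. They were taken by symbol from a count table of 24970 genes, with each gene represented by its transcript accession of the highest mean count. All 40 were in the table and all 40 passed the filter on low counts, among 12913 genes tested. Polyadenylated RNA had been sequenced from 16 liver samples in 4 groups of 4, to compare the response to TCPOBOP between mice with and without their own receptor. TCPOBOP is a compound that potently activates mouse CAR (the constitutive androstane receptor). Wild-type mice were C57BL/6 Ntac, and humanized mice carried the human genes for PXR, CAR and CYP3A4/3A7. In each strain, 4 mice received the vehicle, which was 2% DMSO in corn oil, and 4 received TCPOBOP at 3 mg/kg in 2 administrations spaced by 24 h, with livers taken at 48 h. The sources used here do not give sex, age, litters or the genetic background of the humanized strain.

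The acute phase response is the change in plasma protein synthesis that hepatocytes make when cytokines from macrophages, above all interleukin-6 and interleukin-1, reach the liver. Interleukin-6 signals through its receptor and STAT3, with SOCS3 as the feedback inhibitor, and acts with C/EBP and NF-kB factors on genes for serum amyloid A, haptoglobin, orosomucoids, fibrinogen and hepcidin. The liver also makes most circulating complement proteins. Metallothioneins bind zinc and copper, and their genes respond to metals through the factor MTF1 as well as to glucocorticoids and interleukin-6.

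Promoter sequence is shown for the members whose values carry the comparisons below, to place these genes beside the response elements for which they are known. The sequences are from RefSeq (GRCm38.p6, the assembly of mm10), run 5′ to 3′ toward the start site on the coding strand, and leave out bases inside the span of the gene itself. Capitals mark matches on either strand to the core of the metal response element (TGCACNC or TGCGCNC) in Mt2, to a STAT-type motif (TTCNNNGAA) in Hamp, and to a C/EBP-type motif (TTGCNNAA) in the others. Mt2 is shown because it passed the test in 3 of 4 comparisons, and Hamp as the interleukin-6-responsive iron gene. Orm2 and Orm3 are shown because these neighbours share sequence and only Orm3 passed the test. Saa2 is shown as a major acute phase gene that varied widely between samples.
Mt2 (chr8:94172368-94172617, plus strand): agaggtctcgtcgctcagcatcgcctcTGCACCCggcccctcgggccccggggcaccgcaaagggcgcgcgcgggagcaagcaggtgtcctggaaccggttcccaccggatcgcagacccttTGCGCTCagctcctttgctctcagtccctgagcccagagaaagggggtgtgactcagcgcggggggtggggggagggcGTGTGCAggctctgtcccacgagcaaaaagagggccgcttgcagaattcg
Hamp (chr7:30944030-30944279, minus strand): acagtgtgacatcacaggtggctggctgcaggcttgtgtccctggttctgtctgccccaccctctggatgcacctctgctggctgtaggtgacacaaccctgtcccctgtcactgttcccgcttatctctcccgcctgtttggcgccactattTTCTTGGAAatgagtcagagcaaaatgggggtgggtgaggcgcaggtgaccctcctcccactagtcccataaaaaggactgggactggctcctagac
Orm2 (chr4:63362199-63362448, plus strand): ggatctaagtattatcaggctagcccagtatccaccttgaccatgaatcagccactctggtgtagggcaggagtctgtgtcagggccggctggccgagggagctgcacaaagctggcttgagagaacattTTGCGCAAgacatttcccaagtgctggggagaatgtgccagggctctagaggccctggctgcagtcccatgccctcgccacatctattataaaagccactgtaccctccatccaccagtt
Orm3 (chr4:63355908-63356068, plus strand): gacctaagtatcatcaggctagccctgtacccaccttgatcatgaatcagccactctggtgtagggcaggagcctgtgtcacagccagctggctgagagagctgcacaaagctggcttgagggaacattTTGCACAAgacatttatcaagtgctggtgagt
Saa2 (chr7:46751583-46751832, plus strand): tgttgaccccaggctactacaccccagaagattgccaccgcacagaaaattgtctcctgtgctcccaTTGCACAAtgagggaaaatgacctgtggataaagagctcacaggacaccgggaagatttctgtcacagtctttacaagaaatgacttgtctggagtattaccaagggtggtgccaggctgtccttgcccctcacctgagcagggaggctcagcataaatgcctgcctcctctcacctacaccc

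Windows of 250 bases before the start site were held for 32 of the 40 members. The C/EBP-type motif was in 14 of these 32 windows (43.8%), against 9.55% of 27025 promoters of the same length. The STAT-type motif was in 8 of 32 (25.0%), against 7.14% of all promoters. The metal response element core, a short and common string, was in 5 of 32 (15.6%), against 21.3% of all. The 3 matches in Mt2 were spread over the window, and 0.77% of all promoters held at least 3. Matches of the 3 motifs were counted separately, also where they overlapped. They describe the letters in these windows and do not show that a factor was bound. Several members are neighbours: Saa3, Saa4, Saa1 and Saa2 on chromosome 7, Orm1, Orm3 and Orm2 on chromosome 4, the fibrinogen genes Fgg, Fga and Fgb on chromosome 3, and Mt2 and Mt1 on chromosome 8 with 5.3 kb between them. The aligned windows of Orm2 and Orm3 were 85.5% identical, those of Saa1 and Saa2 94.8% and those of Mt1 and Mt2 37.5%. Unlike the printed sequences, the windows behind these identities and the motif counts were not cut where they reached into the gene's own span. This concerns the windows of Orm3, Mt1 and Saa1 among these.

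Wild-type TCPOBOP libraries were the deepest, with 30228724 to 37998473 counts each. The wild-type vehicle libraries held 11827994 to 19483951 counts, the humanized vehicle libraries 12612610 to 16904182 and the humanized TCPOBOP libraries 14019983 to 16755802, so depth differed between groups. The lowest count of any member in any library was 12, for Il1rn. Levels are given as CPM, a gene's counts relative to the library total after TMM scaling (trimmed mean of M-values), and are compared only within a gene. Mouse Nr1i3, which encodes CAR, ran from 46.2 to 107.1 CPM over the wild-type livers and from 1.63 to 5.02 CPM over the humanized ones. The 4 humanized TCPOBOP libraries were not alike. Replicate 1 had a scaling factor of 0.79, the lowest of the 16, and the 40 members took 18.04% of its counts before scaling, against 6.1 to 13.86% in the other libraries. In a principal component analysis of the 1000 most variable genes, replicates 3 and 4 lay at -12.4 and -15.9 on the first component and at -14.4 and -16.8 on the second. The other 6 humanized libraries lay between -32.8 and -25.5 on the first component and between 3.1 and 20.7 on the second. The counts of members called for the humanized TCPOBOP effect and the interaction are therefore also given without replicate 1 and without replicates 3 and 4. For single members these fits are given only in some cases. Leaving out replicates 3 and 4 was chosen after the data were seen.

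With TCPOBOP, 29 of 40 members had a negative log2 change in wild-type liver and 10 had one in humanized liver. In wild-type liver 8 of the 40 passed the test at an adjusted p of 0.05 (20%), 7 lower and 1 higher, where 13.1% of all genes passed, 4.99% lower and 8.1% higher. The 7 that fell were Itih3, Mt2, Hamp, Serpina3n, Mt1, Il6ra and C8a, and the 1 that rose was Orm3. The median log2 change of the members was -0.47, against -0.02 over all genes. At an unadjusted p under 0.05, 17 of 40 differed (42.5%), 15 of them lower, against 25.1% of all genes. DESeq2 called 13 members, 11 of them lower, and 13.9% of all genes. In bulk liver, fewer cells of a type and less RNA per cell cannot be told apart.

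In humanized liver only Orm3 passed the edgeR test (2.5% of members), where 2.52% of all genes passed, 1.32% higher and 1.19% lower. Another 8 members had an unadjusted p under 0.05, which makes 22.5% of members, near the 17.9% of all genes. The median log2 change was 0.36, against 0.02 over all genes. Without humanized replicate 1, 4 members passed, where 7.36% of all genes did: Orm3, Serpina3n and Masp1 were higher and Mbl2 was lower. Without humanized replicates 3 and 4, Orm3 and Mbl1 passed, both higher, where 3.53% of all genes did. DESeq2 called 4 members, Orm3 and Serpina3n higher and Hamp and Il1rn lower, and 5.43% of all genes. In edgeR, 2 members passed without replicate 2 of humanized vehicle or replicate 2 or 3 of wild-type vehicle, where 1.98, 5.25 and 2.13% of all genes did. Of all genes called, 52.6% were higher with TMM scaling, and 59.4% with the size factors of DESeq2.

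The difference between the TCPOBOP effects of the strains was tested as an interaction, humanized minus wild-type. It was called for 5 of 40 members (12.5%), where 7.46% of all genes were called, 3.48% higher and 3.98% lower. Serpina3n, Il6ra, Saa4 and Mt2 had the more positive effect in humanized liver, and Il1rn the more negative one. The members' median interaction was 0.72, against 0.00 over all genes. Without humanized TCPOBOP replicate 1, 9 members were called, where 13.7% of all genes were. Without replicates 3 and 4, 8 were called, where 7.78% of all genes were. The count also depended on other single libraries. It was 2 without replicate 1 of humanized vehicle or replicate 1 or 3 of wild-type vehicle, and 3 without replicate 4 of humanized vehicle or replicate 2, 3 or 4 of wild-type TCPOBOP. In these 7 fits 4.41 to 6.32% of all genes were called. It was 9 without replicate 2 of wild-type vehicle or replicate 1 of wild-type TCPOBOP, where 13.1 and 6.84% of all genes were called. DESeq2 called 14 members (35%), 13 of them higher, and 10.1% of all genes.

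Under vehicle, 6 of 40 members differed between the strains (15%), where 16.1% of all genes did, 7.11% higher and 8.95% lower in humanized liver. Hamp, Mt2 and Mt1 were higher, and Masp1, Il6ra and C8b were lower. The median log2 difference was 0.06, against 0.00 over all genes. The count was 2 without replicate 1 of humanized vehicle and 3 without replicate 3 or 4 of that group, where 4.78, 5.91 and 6.09% of all genes were called. It was 11 (27.5%) without replicates 3 and 4 of humanized TCPOBOP, where 26.1% of all genes were called. DESeq2 called 9 members (22.5%) and 20.1% of all genes. The treatment comparisons and this one share their vehicle libraries, so a high or low vehicle group enters more than 1 of them.

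**Figure D1:**
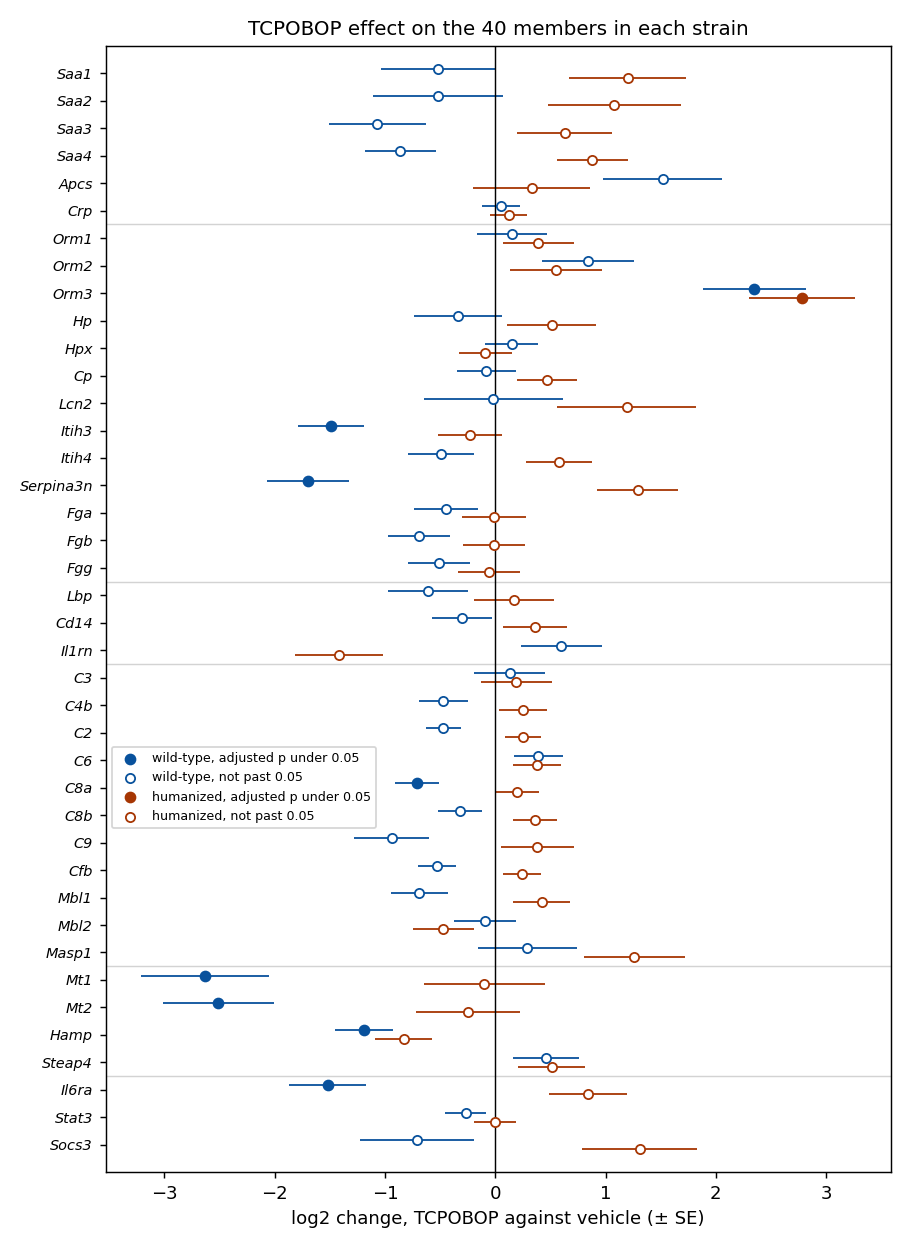
Log2 change of each of the 40 members, TCPOBOP against vehicle, in wild-type (blue) and humanized (red) liver, with bars of ± 1 SE. Filled points have an edgeR adjusted p under 0.05: 8 in wild-type liver, of which Orm3 alone is higher, and Orm3 alone in humanized liver.

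Mt1, Mt2 and Hamp, 3 of the 4 metal-handling members, fell with TCPOBOP in wild-type liver, and the same 3 were higher in humanized than in wild-type liver under vehicle. The falls of Mt1 and Mt2 were the largest among the 40 members. Mt1 encodes metallothionein 1 (NM_013602, chromosome 8, 94178883 to 94180327). In wild-type vehicle livers it was at 463, 779, 235 and 204 CPM. In wild-type TCPOBOP livers it was at 104, 82.4, 47.0 and 38.5 CPM. All 4 treated values lay below all 4 vehicle values. Mt1 was 6.17-fold lower, a log2 change of -2.63 ± 0.58 (SE, edgeR adjusted p = 0.00505). In humanized livers it was at 1564, 1079, 998 and 1929 CPM under vehicle, and at 3355, 790.3, 627 and 429.8 CPM after TCPOBOP. Replicate 1 was far above the others, which lay below all vehicle livers. The log2 change of Mt1 in humanized liver was -0.10 ± 0.55 (edgeR adjusted p = 0.956), and without replicate 1 it was -1.15 ± 0.44 (edgeR adjusted p = 0.112).

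Mt2, the neighbouring metallothionein gene, ranked the 4 livers of each TCPOBOP group in the same order as Mt1. It was at 386, 377, 195 and 178 CPM in the wild-type vehicle group and 90.8, 44.7, 37.2 and 25.96 CPM in wild-type TCPOBOP livers. The change was 5.72-fold lower, -2.51 ± 0.50 in log2 (edgeR adjusted p = 0.0021), with no overlap. Humanized livers had Mt2 at 1009.9, 881, 794 and 1446 CPM under vehicle and 2020.4, 629, 472 and 356 CPM after TCPOBOP, where replicate 1 again stood above all others. The Mt2 interaction was 2.27 ± 0.68 (edgeR adjusted p = 0.0493), just inside the threshold, and that of Mt1 was 2.53 ± 0.79 (edgeR adjusted p = 0.0599), just outside, while DESeq2 called both. The Mt2 call was lost when any of 12 libraries was left out, with an adjusted p of up to 0.11. These were humanized vehicle replicates 1 to 4, humanized TCPOBOP 1 and 2, wild-type vehicle 1 to 3 and wild-type TCPOBOP 2 to 4. Without humanized TCPOBOP replicate 1 the Mt2 interaction was 1.46 ± 0.51 (edgeR adjusted p = 0.0704), and without replicates 3 and 4 it was 2.87 ± 0.62 (edgeR adjusted p = 0.0106).

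Under vehicle, Mt2 was 3.64-fold and Mt1 3.31-fold higher in humanized liver. The log2 difference of Mt2 was 1.86 ± 0.49 (edgeR adjusted p = 0.0199) and that of Mt1 1.73 ± 0.57 (edgeR adjusted p = 0.0458). No wild-type vehicle liver reached the lowest humanized one for either gene. The Mt1 call was kept only without humanized TCPOBOP replicate 1, 3 or 4 or wild-type vehicle replicate 2, and was lost in the other 12 of the 16 fits that left out 1 library, with an adjusted p of up to 0.112. The Mt2 call was lost without humanized vehicle replicate 1 or 4, with an adjusted p of up to 0.0602.

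Hamp encodes hepcidin, the hormone that lowers iron export by binding ferroportin (NM_032541, chromosome 7, 30942368 to 30944029). It was at 330, 509, 562 and 387 CPM in the wild-type vehicle group and 132, 305, 181 and 163 CPM in wild-type TCPOBOP livers. These groups did not overlap, and Hamp was 2.29-fold lower, -1.19 ± 0.26 in log2 (edgeR adjusted p = 0.00417). The levels in humanized livers were 1202, 1049.6, 1335 and 1033 CPM under vehicle and 799, 773, 440.1 and 593 CPM after TCPOBOP. Every humanized TCPOBOP value was below every humanized vehicle value, but the change of -0.83 ± 0.26 did not pass the edgeR test (adjusted p = 0.0967). It passed by DESeq2 (adjusted p = 0.046). The changes in the strains differed by 0.37 ± 0.36 (edgeR adjusted p = 0.626), so a difference between strains was not detected. Under vehicle Hamp was 2.58-fold higher in humanized liver, 1.37 ± 0.26 in log2 (edgeR adjusted p = 0.00513), and this call and the one in wild-type liver held in all 25 other fits. In the same strain comparison 4 of 5 tested erythroid markers, all globin genes, were lower in humanized liver, and their part in the Hamp difference was not tested. Steap4, a metalloreductase that reduces iron and copper, did not pass in any comparison by edgeR or DESeq2 and had log2 changes of 0.46 ± 0.30 in wild-type and 0.51 ± 0.30 in humanized liver (edgeR adjusted p = 0.37 and 0.387).

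**Figure D2:**
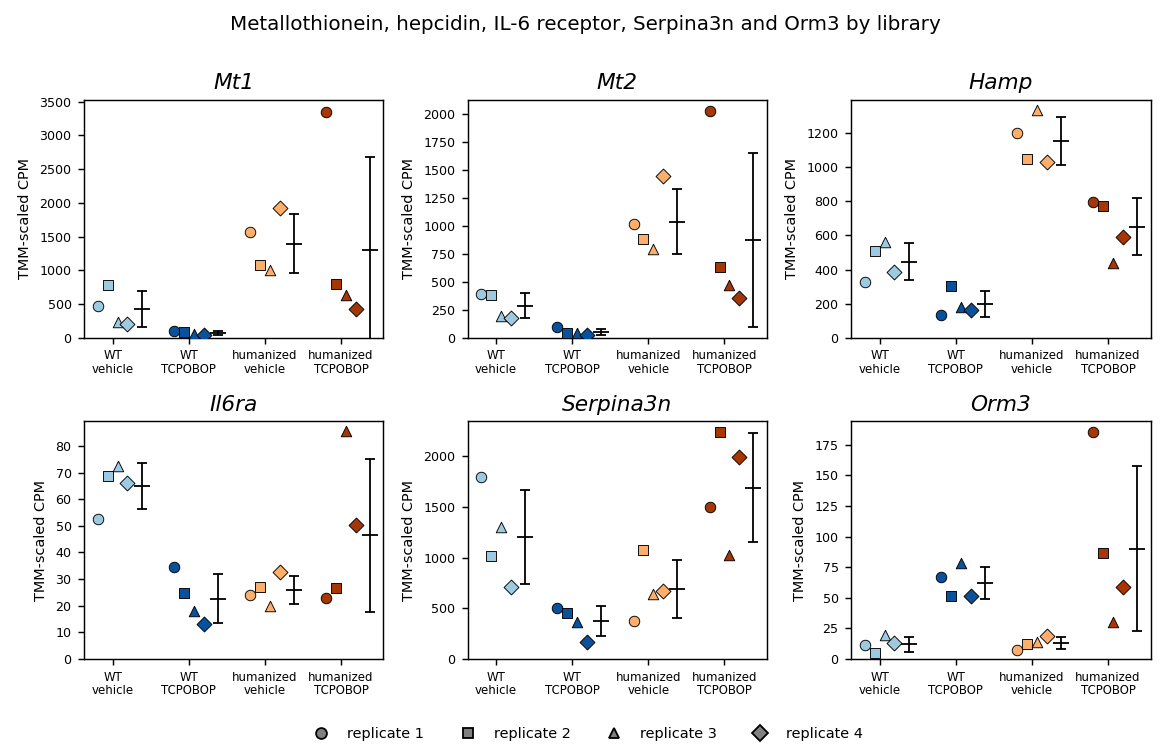
TMM-scaled CPM of Mt1, Mt2, Hamp, Il6ra, Serpina3n and Orm3 in each of the 16 libraries, on linear axes from 0, with the mean and SD of each group of 4 beside the points. The Mt1 and Mt2 panels show humanized TCPOBOP replicate 1 at 3355 and 2020.4 CPM, above every other library.

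A wider list of 25 zinc, copper and iron genes, 24 of them tested, is set beside these members. In wild-type liver 2 rose and 3 fell with TCPOBOP, and the median log2 change of the list was -0.18. Over all genes 13.1% passed in wild-type liver, 8.1% higher and 4.99% lower, and 2.52% in humanized liver. Tfrc, the transferrin receptor that takes up iron, went from 20.04 ± 3.36 to 51.9 ± 10.4 CPM (SD, n = 4), a log2 change of 1.37 ± 0.19 (edgeR adjusted p = 8.74e-05). Slc40a1, which encodes the iron exporter ferroportin, changed by -0.85 ± 0.21 (edgeR adjusted p = 0.0114). Bmp6, a ligand that induces hepcidin, changed by -1.19 ± 0.30 (edgeR adjusted p = 0.0123). In humanized liver Id1, a target of that ligand, fell by 1.42 on the log2 scale (edgeR adjusted p = 0.0397), and Slc39a4, a zinc importer, rose by 0.86 (edgeR adjusted p = 0.0429). The effect on Tfrc differed between strains by -1.62 ± 0.27 (edgeR adjusted p = 0.00135). Under vehicle 3 genes of this list were higher and 4 lower in humanized liver, where 7.11 and 8.95% of all genes were.

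Of the interleukin-6 pathway members, the receptor gene passed the edgeR test and the signalling genes Stat3 and Socs3 did not. Il6ra encodes the ligand-binding chain of the interleukin-6 receptor (NM_001310676, chromosome 3, 89869324 to 89913196). Its levels were 52.7, 68.9, 72.6 and 66.0 CPM in the wild-type vehicle group and 34.4, 25.0, 18.0 and 13.2 CPM in wild-type TCPOBOP livers, which did not overlap. Il6ra was 2.88-fold lower, -1.52 ± 0.35 in log2 (edgeR adjusted p = 0.00617). Humanized livers had 24.2, 27.0, 20.04 and 32.8 CPM under vehicle, all below the wild-type vehicle range. That difference was 2.5-fold, -1.32 ± 0.35 in log2 (edgeR adjusted p = 0.021), and it was lost without humanized vehicle replicate 1 or 3, with an adjusted p of up to 0.0659. After TCPOBOP, humanized livers had 23.0, 26.8, 85.6 and 50.1 CPM, so replicates 3 and 4 were high and replicates 1 and 2 stayed within the vehicle range.

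The change of Il6ra in humanized liver was 0.84 ± 0.35 (edgeR adjusted p = 0.212) with all libraries and -0.06 ± 0.30 (edgeR adjusted p = 0.948) without replicates 3 and 4. The interaction was 2.36 ± 0.49 (edgeR adjusted p = 0.00652). Without replicates 3 and 4 it was 1.46 ± 0.38 and still passed (edgeR adjusted p = 0.027). Stat3, the transcription factor of the pathway, ranged from 127 to 253 CPM over the 16 livers and had adjusted p of 0.362 or more in the 4 edgeR comparisons. Socs3, the feedback inhibitor, was at 25.7, 14.8, 15.4 and 109 CPM in humanized TCPOBOP livers and at 4.69 to 19.3 CPM in all vehicle livers. Its log2 change in humanized liver was 1.31 ± 0.52 and did not pass (edgeR adjusted p = 0.186). The Socs3 interaction did not pass by edgeR (2.02 ± 0.73, adjusted p = 0.106) and did by DESeq2 (adjusted p = 0.0437).

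Among 24 tested regulators of the interleukin-6, C/EBP and NF-kB pathways, 2 fell in wild-type liver and none in humanized liver by edgeR, where 3 had an unadjusted p under 0.05 and DESeq2 called 1. Over all genes 13.1% passed in wild-type and 2.52% in humanized liver by edgeR. Socs2, a feedback inhibitor best known from growth hormone signalling, fell by 2.99 on the log2 scale (edgeR adjusted p = 0.00137), and Lifr, the receptor chain for leukemia inhibitory factor, by 1.75 (edgeR adjusted p = 0.0122). Under vehicle Il6st, which encodes the shared signalling chain gp130, was lower in humanized liver, with a log2 difference of -1.21 ± 0.34 (edgeR adjusted p = 0.0251). Ptpn11 and Jak1 were lower as well, with log2 differences of -0.77 and -0.61. Cebpa, a hepatocyte C/EBP factor, had an interaction of 1.44 ± 0.39 (edgeR adjusted p = 0.0291). Of 10 genes of glucocorticoid signalling, Hsd11b1, the enzyme that reactivates glucocorticoid, and Klf9 fell in wild-type liver, with log2 changes of -0.98 ± 0.17 and -1.02 ± 0.21 (edgeR adjusted p = 0.00059 and 0.00286).

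Among the 13 plasma carriers, protease inhibitors and fibrinogen genes, Orm3 rose in both strains, and Itih3 and Serpina3n fell in wild-type liver. Orm3 is 1 of 3 orosomucoid genes, whose products carry drugs and lipids in plasma (NM_013623, chromosome 4, 63356069 to 63359506). Its levels were 11.45, 4.57, 19.7 and 12.7 CPM in the wild-type vehicle group and 66.9, 51.8, 78.4 and 51.2 CPM in wild-type TCPOBOP livers. Orm3 was 5.12-fold higher, 2.35 ± 0.47 in log2 (edgeR adjusted p = 0.00205). In humanized livers it went from 7.67, 11.9, 13.7 and 19.1 CPM to 185, 86.5, 29.9 and 59.0 CPM. That change was 6.87-fold, 2.78 ± 0.48 in log2 (edgeR adjusted p = 0.00567), and 2.18 ± 0.40 without replicate 1 (edgeR adjusted p = 0.00628). Treated and vehicle livers did not overlap in either strain, and the changes differed by 0.43 ± 0.64 (edgeR adjusted p = 0.771). This was the only member that edgeR called in both strains. DESeq2 also called Hamp and Serpina3n in both. Hamp was lower in each (log2 changes -1.21 and -0.79), while Serpina3n was lower in wild-type (-1.71) and higher in humanized liver (1.33).

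Orm2, the neighbour of Orm3, was at 240.4, 134, 367 and 366 CPM in the wild-type vehicle group and 827, 337, 436 and 386 CPM in wild-type TCPOBOP livers, which overlapped. Its log2 change was 0.84 ± 0.42 in wild-type and 0.55 ± 0.42 in humanized liver (edgeR adjusted p = 0.225 and 0.532). Humanized livers had 629.6, 540.1, 379.6 and 657 CPM under vehicle and 1609, 819, 360.4 and 443 CPM after TCPOBOP, with replicate 1 the highest. Orm1 had log2 changes of 0.15 ± 0.32 and 0.39 ± 0.32 and did not pass either (edgeR adjusted p = 0.836 and 0.568). Orm1, Orm2 and Orm3 transcripts are 86.1 to 91.0% identical, and the sources used here do not say how reads that fit several genes were handled, so counts may be split between them.

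Serpina3n, a protease inhibitor of the antichymotrypsin family, fell in wild-type liver and had a positive change in humanized liver that missed the threshold. It was at 1797, 1014, 1305 and 709 CPM in the wild-type vehicle group and 503, 452, 369 and 166 CPM in wild-type TCPOBOP livers, with no overlap. That was 3.24-fold lower, -1.70 ± 0.37 in log2 (edgeR adjusted p = 0.0048). The levels in humanized livers were 374, 1073, 644 and 666 CPM under vehicle and 1502, 2242, 1023 and 1998 CPM after TCPOBOP, with 3 of 4 treated livers above all vehicle livers. The humanized change of 1.29 ± 0.37 did not pass (edgeR adjusted p = 0.0723), although it did without replicate 1, at 1.37 ± 0.40 (edgeR adjusted p = 0.0462), and by DESeq2 (adjusted p = 0.0123). The interaction was 2.99 ± 0.53 (edgeR adjusted p = 0.00199), and it was called in every alternative fit.

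Itih3, a heavy chain of the inter-alpha-trypsin inhibitors that bind hyaluronan, was at 3228, 5374, 2955 and 1913 CPM in wild-type vehicle livers. After TCPOBOP it was at 1665, 1271, 1182 and 675 CPM, below all vehicle values. It was 2.81-fold lower, -1.49 ± 0.30 in log2 (edgeR adjusted p = 0.00199), in all alternative fits too. In humanized liver the log2 change was -0.23 ± 0.29 (edgeR adjusted p = 0.742), and the interaction of 1.27 ± 0.41 missed the threshold (edgeR adjusted p = 0.0701). DESeq2 called that interaction (1.32, adjusted p = 0.0176). Itih2, a related chain on a wider list of acute phase genes, was lower in both strains, by log2 changes of -1.11 ± 0.16 and -0.63 ± 0.16 (edgeR adjusted p = 0.000118 and 0.0455).

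Hp encodes haptoglobin, which clears free hemoglobin. It was at 13415, 15546, 11174 and 4802 CPM in wild-type livers under vehicle and 10225, 10834, 8289 and 6206 CPM after TCPOBOP. In humanized livers it was at 13541, 16693, 18179 and 18467 CPM under vehicle and at 47505, 23329, 10236 and 14475 CPM after TCPOBOP. Humanized TCPOBOP replicate 1 stood far above the rest, and the change of 0.51 ± 0.40 (edgeR adjusted p = 0.546) was -0.04 ± 0.35 without it (edgeR adjusted p = 0.953). Lcn2, the siderophore-binding lipocalin 2, was at 455, 151, 199 and 15.8 CPM in wild-type vehicle, and its humanized TCPOBOP values of 1394, 1074, 252 and 879 CPM overlapped the vehicle values of 214, 488, 403 and 476 CPM. The log2 change was 1.19 ± 0.63 (edgeR adjusted p = 0.348). In wild-type TCPOBOP livers Lcn2 was at 314, 174, 213 and 109.7 CPM, with a log2 change of -0.02 ± 0.63 (edgeR adjusted p = 0.993). The fibrinogen chains Fga, Fgb and Fgg had wild-type changes of -0.45, -0.69 and -0.51 and humanized changes of -0.01, -0.01 and -0.06, none of which passed. Cp and Itih4 did not pass in any of the 4 comparisons by edgeR or DESeq2. Hpx, hemopexin, which binds free heme, passed in none by edgeR and, by DESeq2, between the strains under vehicle (log2 difference 0.56, adjusted p = 0.0494).

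No amyloid or pentraxin gene passed in either treatment comparison by edgeR, where 3 of 6 in wild-type and 2 of 6 in humanized liver had an unadjusted p under 0.05 and DESeq2 called 2 and 0. Over all genes 13.1 and 2.52% passed by edgeR. Saa1, which encodes an acute phase apolipoprotein of HDL, was at 7340.4, 1823, 6632 and 1896 CPM in the wild-type vehicle group and 4315, 3482, 3040.1 and 1499.6 CPM in wild-type TCPOBOP livers. The levels in humanized livers were 7165, 10280.1, 6375 and 10438 CPM under vehicle and 43130.3, 17508, 7993 and 9836 CPM after TCPOBOP. Treated humanized livers thus spanned from inside the vehicle range to well above it. The log2 change of Saa1 was -0.52 ± 0.52 in wild-type and 1.2 ± 0.53 in humanized liver (edgeR adjusted p = 0.607 and 0.242), and without replicate 1 the latter was 0.48 ± 0.46 (edgeR adjusted p = 0.539).

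Saa2 likewise ran from inside the vehicle range to above it, with 40612.7, 21426, 7589 and 11302 CPM in humanized TCPOBOP and 7832, 11564, 6413 and 12570.3 CPM in humanized vehicle livers. Wild-type livers had 8440.2, 1737, 6088 and 991 CPM under vehicle and 4501, 3662, 2761 and 1118 CPM after TCPOBOP. Its log2 changes were -0.52 ± 0.59 and 1.08 ± 0.60 (edgeR adjusted p = 0.666 and 0.369). The Saa1 and Saa2 transcripts are 87.3% identical, so the pair is more certain than either gene. Saa4, the constitutive member of the family, was at 852, 429, 679 and 382 CPM in the wild-type vehicle group and 537, 236, 350.5 and 166 CPM in wild-type TCPOBOP livers. In humanized livers it was at 411, 443, 583 and 498 CPM under vehicle and 999, 998, 586 and 983 CPM after TCPOBOP, each treated value above each vehicle value. The effects of -0.86 ± 0.32 and 0.88 ± 0.32 did not pass on their own (edgeR adjusted p = 0.0889 and 0.153), and their difference of 1.74 ± 0.45 did (edgeR adjusted p = 0.0242). DESeq2 called the wild-type effect (adjusted p = 0.0498). The edgeR call of the difference was lost without replicate 1 of humanized vehicle, replicate 1 or 3 of wild-type vehicle, or replicate 2 of wild-type TCPOBOP, with an adjusted p of up to 0.0565. Saa3 had wild-type and humanized changes of -1.07 ± 0.44 and 0.63 ± 0.43 (edgeR adjusted p = 0.13 and 0.478). Its interaction of 1.70 ± 0.62 did not pass by edgeR (adjusted p = 0.106) and did by DESeq2 (adjusted p = 0.0462). Apcs, serum amyloid P, had a log2 change of 1.52 ± 0.54 in wild-type liver that did not pass by edgeR (adjusted p = 0.0757). It passed in 5 of 25 alternative fits, among them DESeq2 (adjusted p = 0.0311). Crp, which in mice is a minor acute phase gene, ranged from 431 to 719 CPM over all livers.

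**Figure D3:**
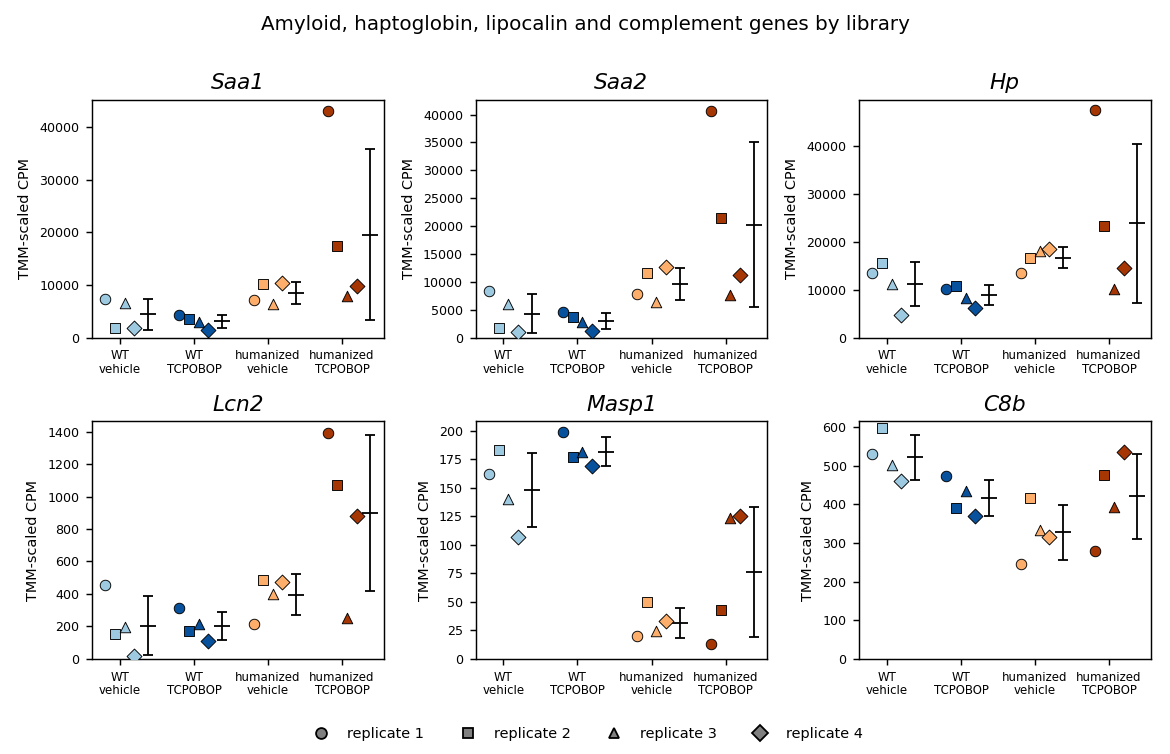
TMM-scaled CPM of Saa1, Saa2, Hp, Lcn2, Masp1 and C8b in each library, on linear axes from 0, with the mean and SD of each group of 4. Humanized TCPOBOP replicate 1 is the highest library for Saa1, Saa2, Hp and Lcn2 and the lowest for Masp1, where replicates 3 and 4 lie at 123 and 125 CPM.

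In the lipopolysaccharide and interleukin-1 arm, Il1rn differed in its response between strains. Il1rn encodes the interleukin-1 receptor antagonist and was low throughout, with 12 to 108 counts per library. It was at 2.05, 5.33, 1.13 and 2.64 CPM in wild-type livers under vehicle and at 4.38, 3.09, 4.44 and 5.20 CPM after TCPOBOP. The levels in humanized livers were 7.05, 5.82, 3.08 and 7.83 CPM under vehicle and 2.07, 2.51, 1.43 and 2.96 CPM after TCPOBOP. All 4 treated humanized livers lay below all 4 vehicle ones, while the wild-type groups overlapped. The log2 changes were 0.60 ± 0.37 and -1.42 ± 0.40 (edgeR adjusted p = 0.352 and 0.0678). DESeq2 called the humanized change (adjusted p = 0.0216). The interaction was -2.02 ± 0.55 (edgeR adjusted p = 0.0302). The interaction call was lost in 9 of the 16 fits that left out 1 library (humanized vehicle 1, 2 or 4, humanized TCPOBOP 3, wild-type vehicle 1, 3 or 4, wild-type TCPOBOP 3 or 4), after thinning to the smallest library and without humanized TCPOBOP replicates 3 and 4, with an adjusted p of up to 0.0741. Lbp, which hands lipopolysaccharide to CD14, and Cd14 itself did not pass in any comparison by edgeR or DESeq2. A wider list of 26 acute phase genes had 25 tested. By edgeR 3 passed in wild-type liver, 1 in humanized liver, 1 for the interaction and 0 between the strains under vehicle. Over all genes these shares were 13.1, 2.52, 7.46 and 16.1%. Tlr2, a receptor for bacterial lipoproteins, rose in wild-type liver by 2.55 ± 0.36 in log2 (edgeR adjusted p = 9.14e-05), and Il1rap, a chain of the interleukin-1 receptor, changed by -1.10 ± 0.20 (edgeR adjusted p = 0.000876).

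Of 11 complement members, C8a fell in wild-type liver and Masp1 and C8b were lower in humanized liver under vehicle. C8a, a chain of the membrane attack complex, was at 1180.1 to 1504 CPM in the wild-type vehicle group and 635 to 1047 CPM in wild-type TCPOBOP livers. It was 1.63-fold lower, -0.71 ± 0.20 in log2 (edgeR adjusted p = 0.0223). The call was lost without replicate 3 of wild-type vehicle or replicate 2, 3 or 4 of wild-type TCPOBOP, with an adjusted p of up to 0.091. A further 5 complement members had an unadjusted p under 0.05 in wild-type liver, all with lower values: C2, Cfb, C9, Mbl1 and C4b, with log2 changes of -0.47, -0.53, -0.94, -0.69 and -0.47. These were picked for their p, and their edgeR adjusted p ran from 0.0533 to 0.197. DESeq2 called C2, Cfb and C9 in wild-type liver (adjusted p = 0.00918, 0.0035 and 0.0424), and C2 and Cfb passed in 8 and 9 of 25 alternative fits. The same 5 had humanized changes of 0.25, 0.24, 0.38, 0.42 and 0.25. By edgeR the interaction passed for 0 of the 11 complement members, and for 7.46% of all genes. It had an unadjusted p under 0.05 for 7 of them, against 21.2% of all genes. DESeq2 called it for 5, C2, C8a, C9, Cfb and Mbl1, and for 10.1% of all genes. C3, the central component, was at 20771, 35223, 17521 and 10176 CPM in the wild-type vehicle group and 24573, 26911, 22561 and 17733 CPM in wild-type TCPOBOP livers. In humanized livers C3 was at 8478, 17331, 11151 and 12294 CPM under vehicle and 11100.1, 11773, 16480.3 and 16753 CPM after TCPOBOP. These groups overlapped in each strain, and the changes of 0.13 ± 0.32 and 0.19 ± 0.32 did not pass (edgeR adjusted p = 0.858 and 0.818).

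Masp1 encodes a serine protease that acts with the mannose-binding lectins to start the lectin pathway (NM_008555, chromosome 16, 23451785 to 23521240). It was at 162, 183, 140.4 and 107 CPM in the wild-type vehicle group and 20.1, 49.8, 24.4 and 32.9 CPM in humanized vehicle livers, with no overlap. That was 4.65-fold lower, -2.22 ± 0.48 in log2 (edgeR adjusted p = 0.00901), and the call held in all 25 other fits. Wild-type TCPOBOP livers had 199, 177, 181 and 169 CPM, and humanized TCPOBOP livers 12.7, 43.0, 123 and 125 CPM. Replicates 3 and 4 of the latter were thus within the wild-type range, and replicates 1 and 2 were not. The same 2 replicates, which were also high for Il6ra, had the higher sums of 15 Kupffer cell and macrophage markers, 846 and 700.0 CPM, against 323 and 377 CPM in replicates 1 and 2. The split was not particular to these markers. Sinusoidal endothelial markers summed to 455 and 430 CPM against 191 and 201 CPM, and stellate cell markers to 249 and 300 CPM against 185 and 133 CPM. Hepatocyte markers summed to 60543 and 48538 CPM against 61072 and 60999 CPM. The humanized change of Masp1 was 1.26 ± 0.46 with all libraries (edgeR adjusted p = 0.16), 1.63 ± 0.33 without replicate 1 (edgeR adjusted p = 0.00964) and -0.19 ± 0.39 without replicates 3 and 4 (edgeR adjusted p = 0.848). C8b was at 532, 597, 501 and 459.7 CPM in the wild-type vehicle group and 245, 418, 334 and 315 CPM in humanized vehicle livers. It was 1.59-fold lower, -0.67 ± 0.20 in log2 (edgeR adjusted p = 0.0345), and the call was lost without humanized vehicle replicate 1, 3 or 4 or wild-type vehicle replicate 1, 2 or 3, with an adjusted p of up to 0.113. Mbl2, a mannose-binding lectin, had a strain difference of 0.81 ± 0.28 that did not pass by edgeR (adjusted p = 0.0582) and did by DESeq2 (adjusted p = 0.0397), and C6 passed in no comparison by either.

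A wider list of 31 complement genes had 28 tested, of which 1 rose and 4 fell in wild-type liver. Over all genes 8.1% rose and 4.99% fell there. Clu, a fluid-phase inhibitor of the membrane attack complex, rose by 0.89 ± 0.23 in log2 (edgeR adjusted p = 0.0136). C4a was lower, with a log2 change of -1.94 ± 0.53 (edgeR adjusted p = 0.0206), and as a near copy of C4b it may share counts with it. Cd59a, a membrane inhibitor of the same complex, fell by 0.77 (edgeR adjusted p = 0.033). In humanized liver only Colec11, a collectin, was lower by edgeR (log2 change -1.04 ± 0.21, adjusted p = 0.0164). Colec11 is also on the list of 10 stellate cell markers, whose sum was 133 to 300.0 CPM in humanized TCPOBOP and 373 to 399 CPM in humanized vehicle livers. Of 24 coagulation and fibrinolysis genes, 3 passed in wild-type liver, all lower, where 13.1% of all genes passed. None passed by edgeR in humanized liver, where 2.52% of all genes did. In that comparison 2 of the 24 had an unadjusted p under 0.05 and DESeq2 called 0. Klkb1, prekallikrein, and F11, factor XI, had log2 changes of -1.08 ± 0.21 and -1.19 ± 0.25 in wild-type liver (edgeR adjusted p = 0.00204 and 0.00335), and interactions of 1.32 ± 0.30 and 1.51 ± 0.35 (edgeR adjusted p = 0.0117 and 0.0134).

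Of 12 genes known to fall in the acute phase response, 6 fell with TCPOBOP in wild-type liver and 1 rose, with a median log2 change of -0.65. Over all genes 4.99% fell and 8.1% rose, with a median of -0.02. In humanized liver none of the 12 passed by edgeR, where 2.52% of all genes did. None had an unadjusted p under 0.05, DESeq2 called 0, and their median was 0.00. Alb, albumin, was at 36140 to 68969 CPM in the wild-type vehicle group and 11809 to 20901 CPM in wild-type TCPOBOP livers, a log2 change of -1.56 ± 0.25 (edgeR adjusted p = 0.000271). Trf, transferrin, and Igf1 fell by 1.23 and 1.34 on the log2 scale (edgeR adjusted p = 0.00128 and 0.000549). Serpina6, which encodes the corticosteroid-binding globulin, rose by 1.22 ± 0.28 in log2 (edgeR adjusted p = 0.00664).

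Markers of cell types moved with some of these comparisons. Of 8 hepatocyte markers, Alb and Ttr fell in wild-type TCPOBOP liver by edgeR, and the other 6 did not pass. The sum of all 8 was 29220 to 43404 CPM there, against 61756 to 96778 CPM in wild-type vehicle liver. Alb alone had a mean of 16881 CPM in wild-type TCPOBOP liver and 49738 CPM in wild-type vehicle liver. No marker of 15 for Kupffer cells and macrophages passed in that comparison by edgeR, where 1 had an unadjusted p under 0.05 and DESeq2 called 0. Between the strains under vehicle, 10 of these 15 were lower in humanized liver, where 8.95% of all genes were. Among the 10 were Cd163, Clec4f and Csf1r, with log2 differences of -1.99, -1.04 and -1.92. The summed level of all 15 was 335 to 600.0 CPM in humanized and 680.0 to 1403 CPM in wild-type vehicle livers. With TCPOBOP in humanized liver, Cd163 rose and Ccr2, a marker of recruited monocytes, fell, with log2 changes of 1.28 and -2.01 (edgeR adjusted p = 0.0484 and 0.0399). Cd163 was at 17.7, 16.5, 54.7 and 46.2 CPM in humanized TCPOBOP replicates 1 to 4, against 11.2 to 16.1 CPM under vehicle. Its rise was thus largely in replicates 3 and 4. Ccr2 was low, at 0.24 to 0.61 CPM after TCPOBOP and 1.16 to 2.9 CPM under vehicle. Sinusoidal endothelial markers summed to 323 to 410.0 CPM in humanized and 521 to 1019 CPM in wild-type vehicle livers, and 3 of 10 were lower. Erythroid markers summed to 105 to 132 CPM in humanized and 146 to 233 CPM in wild-type vehicle livers, and 4 of the 5 tested, the globin genes Hbb-bs, Hba-a1, Hba-a2 and Hbb-bt, were lower in humanized liver (median log2 difference of the list -1.51). Neutrophil markers summed to 13.4 to 20.5 CPM in humanized vehicle and 7.78 to 10.2 CPM in humanized TCPOBOP livers. In wild-type livers they summed to 4.70 to 16.4 CPM under vehicle and 5.59 to 10.6 CPM after TCPOBOP. Only 3 of these 8 were tested, and none passed by edgeR, while DESeq2 called 2 between the strains under vehicle. Lymphocyte markers summed to 5.84 to 15.2 and 3.48 to 4.62 CPM in the same humanized groups, and to 4.26 to 7.13 and 2.84 to 4.22 CPM in the wild-type ones. No listed marker was at 0 in all libraries. The part of these markers in the differences of the members was not tested.

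The members varied more between samples of a group than the median gene. Their median within-group SD was 0.47 on the log2 scale, against 0.36 over all genes tested and 0.31 over the 8086 genes with a mean of at least 10 CPM. Lcn2 varied most, with a pooled SD of 1.24, followed by Saa2 with 1.03, Apcs with 0.92 and Mt1 with 0.89. Many members shared their high or low libraries. Among the wild-type TCPOBOP samples, replicate 1 was the highest of the 4 for 29 of 40 members (72.5%, against 23.1% of all genes tested), and replicate 4 was the lowest for 30 (75%, against 24.8%). Wild-type vehicle replicate 4 was the lowest of its group for 24 members (60%, against 25.1% of all genes tested). Humanized vehicle replicate 1 was the lowest for 27 (67.5%, against 29.2%) and humanized TCPOBOP replicate 3 for 23 (57.5%, against 23.6%). As a share of counts before scaling, the members took 6.1 to 11.84% in the wild-type vehicle group and 6.85 to 10.62% after TCPOBOP. In humanized livers they took 9.7 to 12.91% under vehicle and 9.66 to 18.04% after TCPOBOP.

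**Figure D4:**
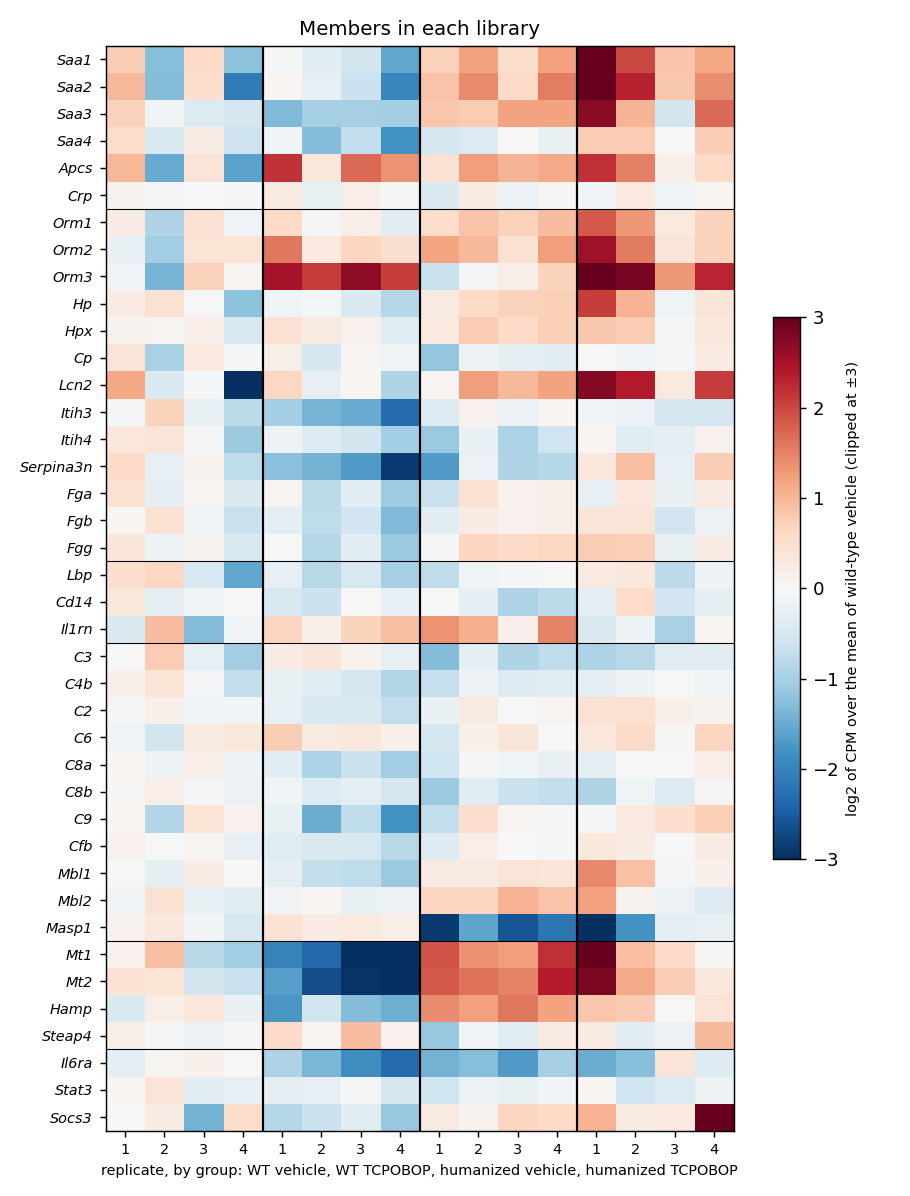
Each member (rows, grouped by role) in each of the 16 libraries (columns, replicates 1 to 4 of each group), as the log2 ratio of CPM to the mean of wild-type vehicle, with colours clipped at 3 in either direction. The Mt1, Mt2 and Hamp rows are blue in wild-type TCPOBOP and red in humanized vehicle livers, Orm3 is red in both TCPOBOP groups, and the Saa1, Saa2, Hp and Lcn2 rows are reddest in humanized TCPOBOP replicate 1.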

How the data were processed

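RNA of 16 mouse liver samples was sequenced after poly(A) selection, per the labels' protocols. STAR, DESeq2 and mm10 were named in the submitters' processing notes without versions or roles. The deposited values are whole-number counts per transcript accession for each library, as the file header and values show; of counts of 20 or more, 74.9% are even, so they may not be raw read numbers, and they were used as given. How reads were assigned and whether strand was used were not stated by the authors. Of 40458 accessions, 114 had no symbol (0.227 to 0.582% of counts), and each of these was kept as an entry of its own. With them the table gave 24970 genes, each taken as its accession of the highest mean count.

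All 16 libraries entered 1 edgeR (4.0.16, R 4.3.3) quasi-likelihood fit with a mean per group, after filterByExpr and TMM scaling. The common dispersion gave a biological coefficient of variation of 0.259, on 12 residual degrees of freedom. P-values are two-sided and adjusted by Benjamini-Hochberg over all 12913 genes within each of 4 comparisons, with a threshold of 0.05. The scripts were tested on simulated data. The labels give 4 replicates per group without naming animals, so p-values measure the spread between these samples. No batch is given. Alternatives were DESeq2 (1.42.0), its size factors in edgeR, no filter, at least 1 CPM in at least 8 libraries, the mean over accessions, thinning to 6831626 counts, the compared groups alone, a replicate block and leaving out each library; leaving out humanized TCPOBOP replicates 3 and 4 was added after the data were seen.

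The members and lists were chosen with earlier results of these data known. All libraries are given for up to 5 called members per comparison with the smallest p and for Mt1, Mt2, Hamp, Saa1, Saa2, Orm2, Lcn2, C3 and Hp; of each wider list up to 3 called genes with the smallest p are named per comparison.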

Additional observations from a re-analysis of the deposited data

Results flagged for a closer look

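Of 160 groups of 4 libraries, 1 per member and group, 6 held a library whose gap to its nearest neighbour passed Dixon's 95% limit as a share of the group's range, and chance alone gives about 1 in 20. In humanized TCPOBOP livers, Mt1 was at 3355.1 CPM in replicate 1, against 430.0 to 790.0 in the others, and Mt2 was at 2020.4 CPM in the same library, against 356 to 629. Socs3 was at 109 CPM in replicate 4 of that group, against 14.8 to 25.7, and Saa4 at 586 CPM in replicate 3, against 983 to 999. Fgg was at 4976.9 CPM in humanized vehicle replicate 1, against 7531.9 to 7930.4. Saa3 was at 8.98 CPM in wild-type TCPOBOP replicate 1, against 11.2 to 11.4.

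The TCPOBOP effect differed between the strains for 5 members by the interaction term of the edgeR fit. As humanized minus wild-type log2 change, the difference was 2.99 for Serpina3n, 2.36 for Il6ra, 2.27 for Mt2, 1.74 for Saa4 and -2.02 for Il1rn. For Serpina3n, Il6ra and Mt2 the wild-type effect passed the edgeR test by itself and the humanized effect did not, and for Saa4 and Il1rn neither did by edgeR.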

How the results depend on the processing

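With the added setting that leaves out humanized TCPOBOP replicates 3 and 4, 13 members were called in wild-type liver (8 with all libraries), 2 in humanized liver (1), 8 for the interaction (5) and 11 between strains (6). DESeq2 called 13 in wild-type liver, 4 in humanized liver and 14 for the interaction, and its size factors in edgeR gave 8 for the interaction. Leaving out 1 library at a time gave 7 to 12, 1 to 4, 2 to 9 and 2 to 9 members in the same order of comparisons. Over all genes, the humanized comparison had 325 calls, 771 with DESeq2 and 960 without humanized TCPOBOP replicate 1. Of 20 calls of a member in a comparison, 12 kept call and direction in every alternative run, 8 lost the call in at least 1, and 0 changed sign. Of the 140 without a call, 35 passed in at least 1 alternative and 41 changed sign without one. Without humanized TCPOBOP replicates 3 and 4, the humanized change of Masp1 turned to -0.19 and the interaction of Mbl2 to 0.06; the cause was not tested. With replicate number as a block, 9, 1, 5 and 7 members were called. No pairing of samples by number was evident, though such correlations cannot exclude it. Of 24 same-numbered pairs, 6 had a correlation over 0.1 (range -0.24 to 0.58), and 4 of 16 libraries correlated best with one of their own number. Depth limits Il1rn and Cd14 most, with as few as 12 and 15 counts in a library.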
